A study of Mus musculus with 20 samples.

Results

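Voltage-gated calcium channels are assembled from a pore-forming alpha1 subunit and accessory alpha2delta, beta and gamma subunits. In skeletal muscle fibres the L-type channel built around Cacna1s sits in the transverse tubules, senses the voltage of the membrane and opens the calcium release channel Ryr1 in the neighbouring sarcoplasmic reticulum, which couples excitation to contraction. The accessory subunits carry the pore to the membrane and set how readily it opens and closes. The 9 subunit genes described here were listed by name (Cacna1s, Cacna1h, Cacna2d1, Cacna2d3, Cacna2d4, Cacnb1, Cacnb3, Cacng1 and Cacng6), with earlier results of these arrays known, and 7 of the 9 were measured among 19938 genes. Cacnb3 and Cacng6 had no probe set named with their symbol alone and are not analysed here.

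Gene expression had been measured in the gastrocnemius, a mostly fast calf muscle, of adult male C57BL/6 mice, with 1 Affymetrix whole-transcript array for each of 20 samples. NCoR1-MKO mice lack the nuclear receptor corepressor NCoR1 in muscle and were compared with their controls, CON, and PGC-1alpha-mTg mice carry a muscle-specific transgene for PGC-1alpha, a coactivator of transcription, and were compared with WT, with 5 arrays in each of the 4 groups. The promoter or Cre line of the models, the genotype of the CON mice and the age beyond adult are not given in the sources used here beyond the models being muscle-specific. Nothing in the labels ties every array to a separate mouse, so p-values measure the spread between these samples, part of which may be technical. The values were RMA values, log2 of a background-corrected and quantile-normalized brightness, and changes are differences of group means on that log2 scale with the standard error of the limma fit.

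The median value of an array was 6.03 to 6.08 in NCoR1-MKO and CON and 5.84 to 5.91 in PGC-1alpha-mTg and WT. The quantiles of arrays differed more between these cohorts than within them, and no level is compared between the cohorts or between probe sets of different genes. Ppargc1a, which encodes PGC-1alpha, was 1.83 ± 0.07 higher in PGC-1alpha-mTg than in WT on the brightest of its probe sets and 0.41 higher as their mean, and Ncor1 was not analysed here. The 8 defining markers of skeletal muscle had a mean value of 13.45 to 13.50 in NCoR1-MKO, 13.43 to 13.46 in CON, 12.88 to 12.93 in PGC-1alpha-mTg and 12.88 to 12.92 in WT over the arrays of a group, on a scale whose highest value was 14.47. A gene was called where limma's p-value, after Benjamini-Hochberg adjustment across all 19938 genes, was under 0.05. Some counts below use an unadjusted p under 0.05, a looser cut. The share of all genes at that looser cut is not given here, so nothing is read from those counts. The rule that listed the subunits used both comparisons, which means that the members were chosen by the same group values that are given below, so their own changes and calls are descriptions, without p-values.

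In NCoR1-MKO muscle 1 of 7 measured subunits was called, the alpha2delta gene Cacna2d4, which was nearly doubled, while 2.63% of all genes were called, 1.31% higher and 1.32% lower. In PGC-1alpha-mTg muscle 6 of 7 were called, 3 higher (Cacna1s, Cacna1h and Cacna2d4) and 3 lower (Cacna2d1, Cacnb1 and Cacng1), while 28.0% of all genes were called, 11.9% higher and 16.1% lower. Nothing is read from these counts, because the list was drawn up with the comparisons in view. The median change of the 7 subunits was 0.01 in NCoR1-MKO and -0.04 in PGC-1alpha-mTg, beside medians over all genes of 0.00 and 0.02. In bulk muscle, fewer cells of a type and less RNA per cell cannot be told apart.

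**Figure D1:**
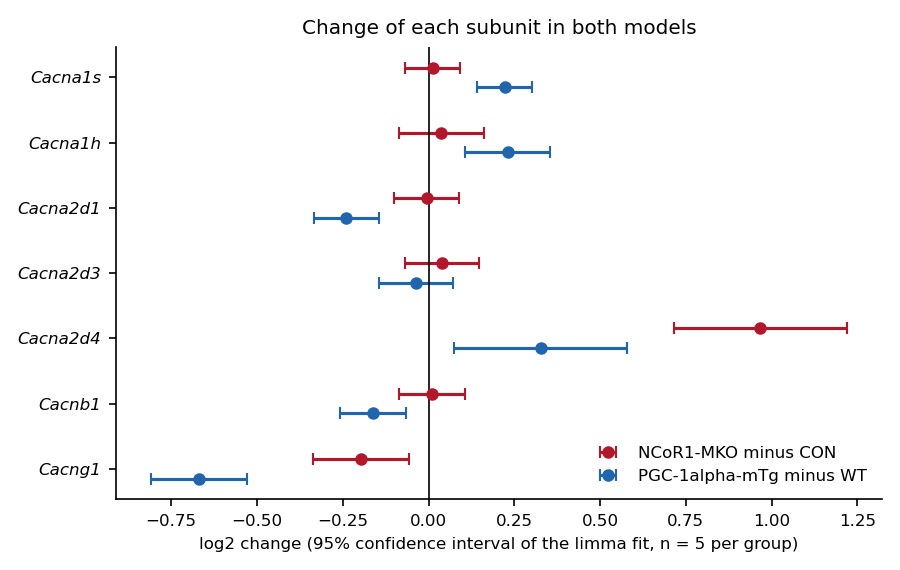
Log2 change of the 7 measured subunit genes (horizontal axis, with the 95% confidence interval of the limma fit, n = 5 arrays per group) in NCoR1-MKO minus CON (red, upper point of each pair) and PGC-1alpha-mTg minus WT (blue, lower point). Cacna2d4 stands at 0.97 in NCoR1-MKO and Cacng1 at -0.67 in PGC-1alpha-mTg, and the other changes lie between -0.24 and 0.33.

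Promoters of 6 of the 9 listed genes, in 8 windows, were found in RefSeq's promoter table (assembly GRCm38.p6), which gives 250 bases before to 50 after each gene's start. Of the measured subunits, 4 had an entry, in 5 windows: Cacna1s (chr1:136052561-136052860, plus strand), Cacna2d1 (chr5:15934441-15934740, plus strand), Cacna2d3 (chr14:29721815-29722114, minus strand) and Cacnb1 with 2 starts. The first 2 are printed because they belong to the pore and the alpha2delta subunit of the same channel and moved in opposite directions in PGC-1alpha-mTg muscle. Capitals mark the E-box CAGCTG, a sequence bound by myogenic transcription factors.
Cacna1s: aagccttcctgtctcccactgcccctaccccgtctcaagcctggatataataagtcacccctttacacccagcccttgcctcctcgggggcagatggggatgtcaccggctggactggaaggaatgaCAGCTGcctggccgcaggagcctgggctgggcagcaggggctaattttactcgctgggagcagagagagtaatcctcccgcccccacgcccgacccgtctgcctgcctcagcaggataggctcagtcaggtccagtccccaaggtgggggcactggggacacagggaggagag
Cacna2d1: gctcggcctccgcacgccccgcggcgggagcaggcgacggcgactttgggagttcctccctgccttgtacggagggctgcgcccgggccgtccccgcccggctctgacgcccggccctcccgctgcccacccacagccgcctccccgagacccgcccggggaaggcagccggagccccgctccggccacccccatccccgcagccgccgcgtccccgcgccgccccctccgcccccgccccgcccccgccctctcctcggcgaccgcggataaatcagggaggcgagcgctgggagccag
The E-box, which reads the same on both strands, stood 123 bases before the start of Cacna1s and 172 bases before that of Cacna2d3, so 2 of the 5 windows held it, and 16.3% of all 32851 promoters of that length did. The nuclear receptor core AGGTCA, the extended core TNAAGGTCA of the estrogen-related receptors, which contains it, and the MEF2 motif, searched on both strands, were not found in these 5 windows. They were found in 16.3%, 1.28% and 3.19% of all promoters. A match is a description of the letters only.

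Both pore-forming genes on the list were slightly higher in PGC-1alpha-mTg muscle and near their controls in NCoR1-MKO muscle. Cacna1s, the voltage sensor of excitation-contraction coupling (chromosome 1), had 11.95, 11.96, 11.88, 11.97 and 12.05 in PGC-1alpha-mTg, against 11.73, 11.78, 11.73, 11.76 and 11.70 in WT. All 5 transgenic arrays lay above all 5 WT arrays, and the change was 0.22 ± 0.04, a fold of 1.17. Cacna1s had 12.71, 12.65, 12.64, 12.67 and 12.59 in NCoR1-MKO, against 12.58, 12.64, 12.63, 12.70 and 12.65 in CON, a change of 0.01 ± 0.04. These groups overlapped almost fully, and the 95% confidence interval of the change was -0.07 to 0.09.

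Cacna1h encodes the T-type pore Cav3.2, which opens at low voltage and is present in developing muscle (chromosome 17). It had 6.46, 6.55, 6.52, 6.59 and 6.60 in PGC-1alpha-mTg, against 6.44, 6.28, 6.26, 6.28 and 6.30 in WT, a change of 0.23 ± 0.06. The groups did not overlap, although WT array 1 at 6.44 stood apart from the other WT arrays, close below the lowest transgenic array. In NCoR1-MKO the values were 6.92, 6.62, 6.77, 6.84 and 6.63, against 6.64, 6.68, 6.65, 6.89 and 6.73 in CON, a change of 0.04 ± 0.06 with overlapping groups.

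The alpha2delta genes, whose products are extracellular glycoproteins that hold the channel at the membrane, gave 3 different patterns. Cacna2d1, the alpha2delta subunit of the skeletal muscle L-type channel (chromosome 5), had 11.24, 11.25, 11.21, 11.31 and 11.26 in PGC-1alpha-mTg, against 11.40, 11.41, 11.53, 11.61 and 11.54 in WT. It fell by 0.24 ± 0.05 on the log2 scale, and every transgenic array lay below every WT array. A second probe set of Cacna2d1 fell by 0.23 ± 0.04 in PGC-1alpha-mTg and changed by 0.00 ± 0.04 in NCoR1-MKO. On the probe set used, NCoR1-MKO arrays had 12.04, 12.04, 12.05, 11.93 and 12.14, against 12.04, 12.08, 12.08, 12.05 and 11.99 in CON, a change of -0.01 ± 0.05.

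Cacna2d4, an alpha2delta gene best known from photoreceptors of the retina (chromosome 6), was the subunit gene with the largest change in NCoR1-MKO muscle. It had 8.86, 8.68, 8.86, 9.09 and 8.43 in NCoR1-MKO, against 7.44, 7.83, 8.05, 7.70 and 8.07 in CON. The lowest knockout array lay above the highest CON array, which 1 of the 7 subunits and 4.17% of all genes did in either direction. The change was 0.97 ± 0.12, a fold of 1.95. Cacna2d4 was called in each of 20 fits with 1 array removed, with changes of 0.87 to 1.06. These fits reuse the values on which the members were chosen, so they are a description and no test.

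In PGC-1alpha-mTg muscle Cacna2d4 had 7.87, 7.68, 7.76, 7.84 and 7.45, against 7.50, 7.64, 7.24, 7.20 and 7.39 in WT. The groups overlapped, and the change of 0.33 ± 0.12 stood just past the threshold. The call held in 7 of these 20 fits. It was lost without NCoR1-MKO array 1, 2 or 3, CON array 2 or 4, PGC-1alpha-mTg array 1, 2, 3 or 4, or WT array 1, 3, 4 or 5, with changes of 0.28 to 0.40 over the 20 fits.

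Cacna2d3, an alpha2delta gene known mainly from neurons (chromosome 14), was not called in either model. It had 4.88, 4.86, 4.82, 4.91 and 4.80 in PGC-1alpha-mTg, against 4.93, 4.90, 4.91, 4.90 and 4.81 in WT, a change of -0.04 ± 0.05. In NCoR1-MKO it had 5.30, 5.36, 5.25, 5.22 and 5.46, against 5.16, 5.42, 5.25, 5.33 and 5.24 in CON, a change of 0.04 ± 0.05. The groups overlapped in both.

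**Figure D2:**
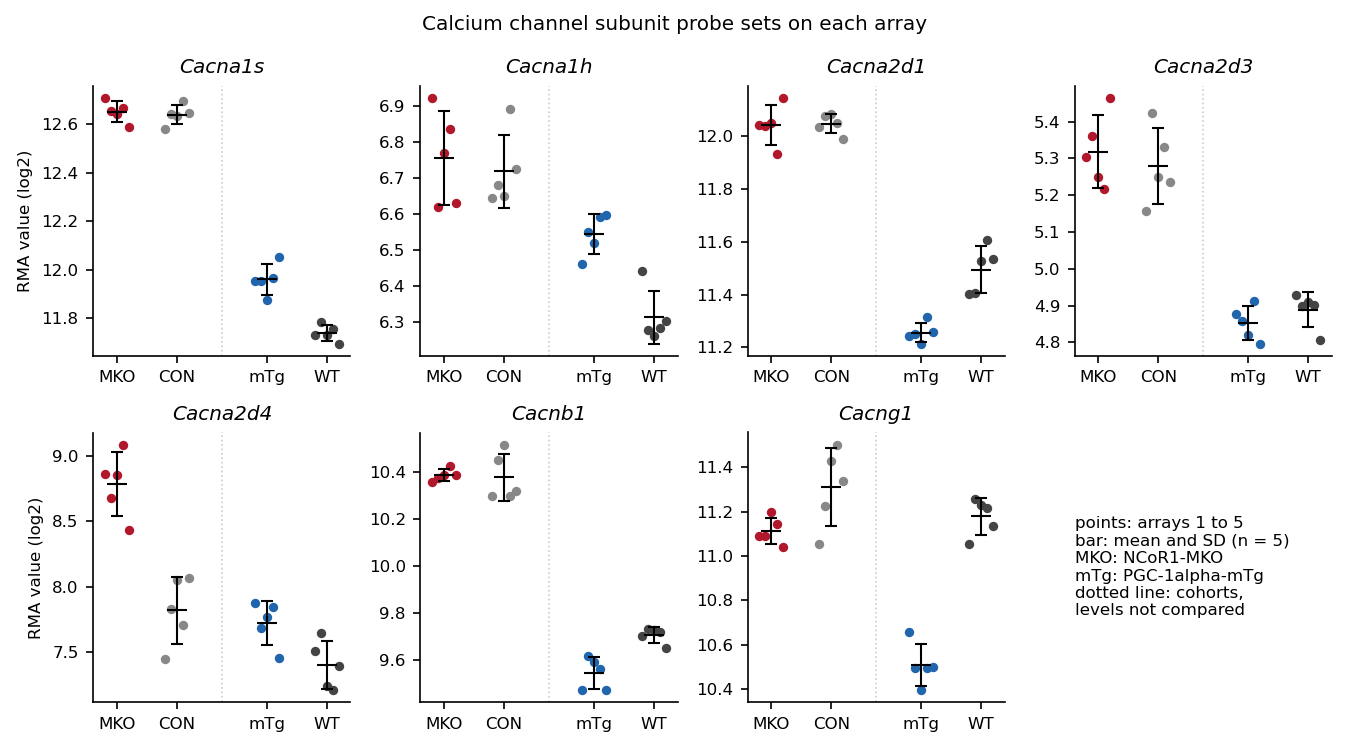
RMA values (vertical axes, log2, each with its own range) of the 7 measured subunit genes on every array, with the mean and SD of the 5 arrays of each group. Groups run NCoR1-MKO, CON, PGC-1alpha-mTg and WT, and the dotted line parts the cohorts, whose levels are not compared. In PGC-1alpha-mTg the points of Cacna1s and Cacna1h lie above WT, those of Cacna2d1, Cacnb1 and Cacng1 below, and for Cacna2d4 the NCoR1-MKO points, 8.43 to 9.09, lie above the CON points, 7.44 to 8.07.

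The genes Cacna2d3 and Cacna2d4 each hold a small leucine-rich repeat membrane protein gene within their span, Lrtm1 and Lrtm2, per the RefSeq table. The probe sets of host and nested gene did not change alike. Lrtm1 had 9.69, 9.73, 9.68, 9.77 and 9.71 in NCoR1-MKO, against 9.66, 9.24, 9.23, 9.38 and 9.12 in CON. It rose by 0.39 ± 0.09 (limma, adjusted p = 0.0154), and all knockout arrays lay above all CON arrays, but the adjusted p was 0.0561 without CON array 5. Lrtm1 also rose by 0.47 ± 0.09 in PGC-1alpha-mTg (limma, adjusted p = 0.000256), with 8.85, 9.13, 9.21, 8.96 and 9.33 in PGC-1alpha-mTg, against 8.72, 8.75, 8.60, 8.47 and 8.59 in WT, and no overlap. Its host Cacna2d3 passed the threshold in neither model, but its values, 4.80 to 5.46, were low on a scale whose lowest value was 2.66. Only 27.4% of genes had a mean as low or lower, so a change of its transcript could go unseen.

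Lrtm2 showed the opposite arrangement, in that the host moved and the nested gene did not pass the test. Its change was -0.09 ± 0.06 in NCoR1-MKO (limma, adjusted p = 0.614), where Cacna2d4 was 0.97 higher. In PGC-1alpha-mTg it was -0.00 ± 0.06 (limma, adjusted p = 0.991). Whether the probes of a host could read transcripts of its nested gene was not tested, because probe positions are not used here. The promoter windows of Cacna2d3 and of Lrtm1 (chr14:29017958-29018257, plus strand) are printed, with the E-box in capitals. In this pair the nested gene was called in both models and its host in neither.
Cacna2d3: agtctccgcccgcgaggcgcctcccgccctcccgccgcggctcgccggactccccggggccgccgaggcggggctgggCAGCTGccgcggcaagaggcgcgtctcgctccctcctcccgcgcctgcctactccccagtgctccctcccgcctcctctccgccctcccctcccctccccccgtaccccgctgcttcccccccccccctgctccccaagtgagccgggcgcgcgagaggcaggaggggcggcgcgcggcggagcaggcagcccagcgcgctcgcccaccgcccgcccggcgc
Lrtm1: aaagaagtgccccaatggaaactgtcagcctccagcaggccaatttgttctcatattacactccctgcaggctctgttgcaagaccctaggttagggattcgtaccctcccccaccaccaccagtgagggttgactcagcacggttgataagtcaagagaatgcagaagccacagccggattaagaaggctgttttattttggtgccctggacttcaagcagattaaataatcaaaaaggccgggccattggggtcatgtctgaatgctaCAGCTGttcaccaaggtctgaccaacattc
The E-box stood 172 bases before the start of Cacna2d3 and 20 bases after that of Lrtm1.

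**Figure D3:**
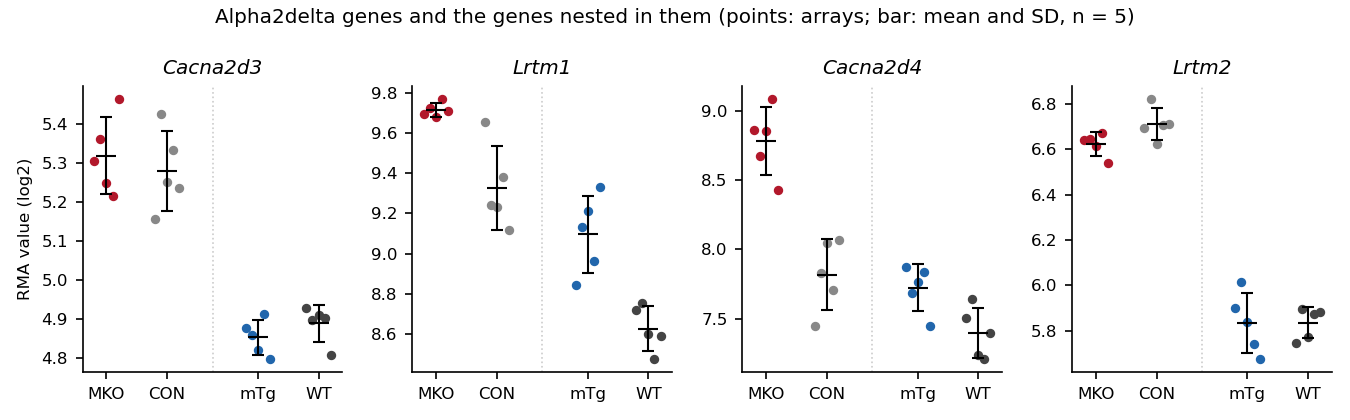
RMA values (vertical axes, log2) of the alpha2delta genes Cacna2d3 and Cacna2d4, each followed by the gene nested in it, on all 20 arrays, with group means and SD (n = 5). Lrtm1 is higher in NCoR1-MKO and PGC-1alpha-mTg than in their controls while Cacna2d3 overlaps them, and Cacna2d4 is higher in NCoR1-MKO while Lrtm2 is not.

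The beta and gamma subunits of the muscle L-type channel were lower in PGC-1alpha-mTg muscle. Cacnb1 encodes the cytoplasmic beta subunit that carries Cacna1s to the tubule membrane (chromosome 11). It had 9.47, 9.62, 9.59, 9.57 and 9.48 in PGC-1alpha-mTg, against 9.70, 9.73, 9.73, 9.72 and 9.65 in WT, and fell by 0.16 ± 0.05 with no overlap. In NCoR1-MKO it had 10.35, 10.37, 10.39, 10.42 and 10.38, against 10.30, 10.45, 10.51, 10.30 and 10.32 in CON, a change of 0.01 ± 0.05 with overlapping groups. Cacnb1 overlaps the ribosomal protein gene Rpl19, whose change in PGC-1alpha-mTg was -0.09 ± 0.04 (limma, adjusted p = 0.0989).

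Cacng1 encodes the gamma subunit of skeletal muscle, which damps the L-type current (chromosome 11). It had 10.66, 10.49, 10.40, 10.50 and 10.50 in PGC-1alpha-mTg, against 11.06, 11.26, 11.23, 11.21 and 11.14 in WT. It fell by 0.67 ± 0.07 on the log2 scale, so the linear value decreased by 37.1%, which was the largest change among the subunits in this comparison, and the groups lay well apart. In PGC-1alpha-mTg 5 of the 7 subunits had groups that did not overlap, while 19.9% of all genes did.

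In NCoR1-MKO muscle Cacng1 leaned the same way without passing the threshold. It had 11.09, 11.09, 11.20, 11.14 and 11.04 in NCoR1-MKO, against 11.06, 11.23, 11.43, 11.50 and 11.34 in CON, a change of -0.20 ± 0.07. The groups overlapped through CON array 1, and without that array Cacng1 was called, with a change of -0.26.

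Set against Cacna1s on the same array, the accessory subunits of the muscle channel, Cacng1, Cacna2d1 and Cacnb1, were lower in PGC-1alpha-mTg. All ratios given here share Cacna1s as their denominator. For the ratios, ± is the standard error from the spread of the ratios in the groups compared, not that of the limma fit. The log2 ratio of Cacng1 to Cacna1s changed by -0.89 ± 0.05, so the linear ratio dropped by 46.1%. The ratio of Cacna2d1 changed by -0.46 ± 0.05 and that of Cacnb1 by -0.38 ± 0.05. In each of these ratios the transgenic and WT arrays did not overlap. The ratio of Cacna2d3, a gene known mainly from neurons, changed by -0.26 ± 0.04, also without overlap. Cacna2d3 itself changed by only -0.04, so its ratio mostly follows the rise of Cacna1s by 0.22. The ratios of Cacna1h and Cacna2d4 overlapped between the groups, with changes of 0.01 ± 0.05 and 0.11 ± 0.12. In NCoR1-MKO the ratio of Cacna2d4 changed by 0.96 ± 0.15 without overlap, that of Cacng1 by -0.21 ± 0.07 with overlap, and the others by -0.02 to 0.03. These ratios are of brightness and show unequal changes of messenger RNA, not the make-up of channels. The share of all genes whose ratio to Cacna1s separated the groups is not given here, so nothing is read from the lack of overlap. The ratios also use the values on which the members were chosen, so they are descriptions.

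The difference between the models, the NCoR1-MKO change minus the PGC-1alpha-mTg change in the same fit, was past the threshold for 4 of 7 subunits and for 15.2% of all genes (8.50% above 0 and 6.66% below), and nothing is read from this count, since it uses the values on which the members were chosen. It was 0.64 ± 0.17 for Cacna2d4 and 0.47 ± 0.10 for Cacng1. It was 0.23 ± 0.06 for Cacna2d1 and -0.21 ± 0.06 for Cacna1s. For Cacna1h, at -0.19 ± 0.08, Cacnb1, at 0.17 ± 0.06, and Cacna2d3, at 0.08 ± 0.07, it was not past it, which does not show that they moved alike.

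The other 17 subunit genes of the family, which serve mostly neurons, heart and smooth muscle, changed by -0.11 to 0.17 in NCoR1-MKO and by -0.27 to 0.21 in PGC-1alpha-mTg. In NCoR1-MKO limma called 0 of the 17, where 2.63% of all genes were called. Their median change was -0.02, and 1 had an unadjusted p under 0.05. That gene was Cacng7, a gamma gene known from neurons, at 0.17 ± 0.06 (limma, adjusted p = 0.151). In PGC-1alpha-mTg 2 of 17 rose and 1 fell, where 11.9% of all genes rose and 16.1% fell, with a median of 0.07. Cacng7 fell by 0.27 ± 0.06 (limma, adjusted p = 0.0013), with 7.84 to 8.15 in PGC-1alpha-mTg, against 8.16 to 8.45 in WT, so its groups stood just apart. The difference between the models for Cacng7 was 0.44 ± 0.08 (limma, adjusted p = 0.000635).

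The rises were at the edge of the threshold. Cacna1c, the L-type pore of heart and smooth muscle, rose by 0.21 ± 0.07 (limma, adjusted p = 0.0358). It had 5.76 to 6.26 in PGC-1alpha-mTg and 5.68 to 5.81 in WT, so its groups overlapped. Cacna2d2, an alpha2delta gene of the brain, rose by 0.18 ± 0.06 (limma, adjusted p = 0.0408). Its groups also overlapped, with 5.41 to 5.80 in PGC-1alpha-mTg and 5.44 to 5.55 in WT. Both genes had low values: 47.0% of genes had a mean as low as that of Cacna1c or lower, and 37.8% for Cacna2d2. The call of Cacna1c was lost without PGC-1alpha-mTg array 1 or 5 or WT array 1, 2 or 5, and that of Cacna2d2 without PGC-1alpha-mTg array 2, 3 or 4 or WT array 1, 3, 4 or 5. Of 6 smooth muscle markers 1 rose in PGC-1alpha-mTg, where 11.9% of all genes rose. It was Smtn, by 0.22 ± 0.05 (limma, adjusted p = 0.0031), and 5 of the 6 were positive, 3 of them at an unadjusted p under 0.05. Myh11 and Cnn1 each changed by 0.15 ± 0.07 (limma, adjusted p = 0.105 and 0.102). The exception was Des, which skeletal muscle also expresses, at -0.09 ± 0.04. The log2 of the markers' summed brightness, Des included, was 12.73 to 12.84 in PGC-1alpha-mTg and 12.78 to 12.88 in WT. That sum mostly follows Des, whose WT mean was 12.42, so it says little about smooth muscle. The part of smooth muscle in the change of Cacna1c was not tested.

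Transcripts of proteins at or near the triad, the junction of the transverse tubule with the sarcoplasmic reticulum, mostly fell in PGC-1alpha-mTg muscle. The list, called triad partners here, also holds Atp2a1 and Atp2a2, calcium pumps of the reticulum. Of 20 measured partners 12 fell and 2 rose, where 16.1% of all genes fell and 11.9% rose, with a median change of -0.21, beside 0.02 over all genes. Jph2, which tethers the reticulum to the plasma membrane, fell by 0.75 ± 0.05 (limma, adjusted p = 3.08e-10), with 9.28 to 9.38 in PGC-1alpha-mTg and 9.97 to 10.21 in WT. Calm2 and Calm3, which encode calmodulin, fell by 0.51 ± 0.07 and 0.42 ± 0.06 (limma, adjusted p = 5.66e-06 and 6.16e-06). Atp2a2, the calcium pump of slow fibres, fell by 0.61 ± 0.13 (limma, adjusted p = 0.000781), and it is also one of the slow fibre markers.

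The rises were S100a1, a calcium-binding protein that binds Ryr1, at 0.64 ± 0.04 (limma, adjusted p = 1.6e-11), and Casq2, the calsequestrin of slow and cardiac muscle, at 0.52 ± 0.11 (limma, adjusted p = 0.00108). Stac3, Jph1 and Ryr1, close partners of Cacna1s, were picked after their values were seen, so they are examples among the 12, while Trdn, Ryr3 and Fkbp1a were among the 6 partners not called. Stac3, the adaptor that the channel needs for coupling, fell by 0.28 ± 0.05 (limma, adjusted p = 0.000105). Jph1, the main junctophilin of skeletal muscle, fell by 0.40 ± 0.04 (limma, adjusted p = 4.23e-08). Ryr1 fell by 0.13 ± 0.04 (limma, adjusted p = 0.0294), a call that was lost without PGC-1alpha-mTg array 2 or 3 or WT array 1, 2 or 3.

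In NCoR1-MKO, where 2.63% of all genes were called, 1 of the 20 partners was called. It was Cav3, the caveolin of muscle membranes, which fell by 0.18 ± 0.05 (limma, adjusted p = 0.0467), with 7.43 to 7.62 in NCoR1-MKO and 7.66 to 7.88 in CON. That call held in only 5 of the 20 fits with 1 array removed, those without NCoR1-MKO array 2 or PGC-1alpha-mTg array 1, 2, 4 or 5. The median change of the partners was -0.02.

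**Figure D4:**
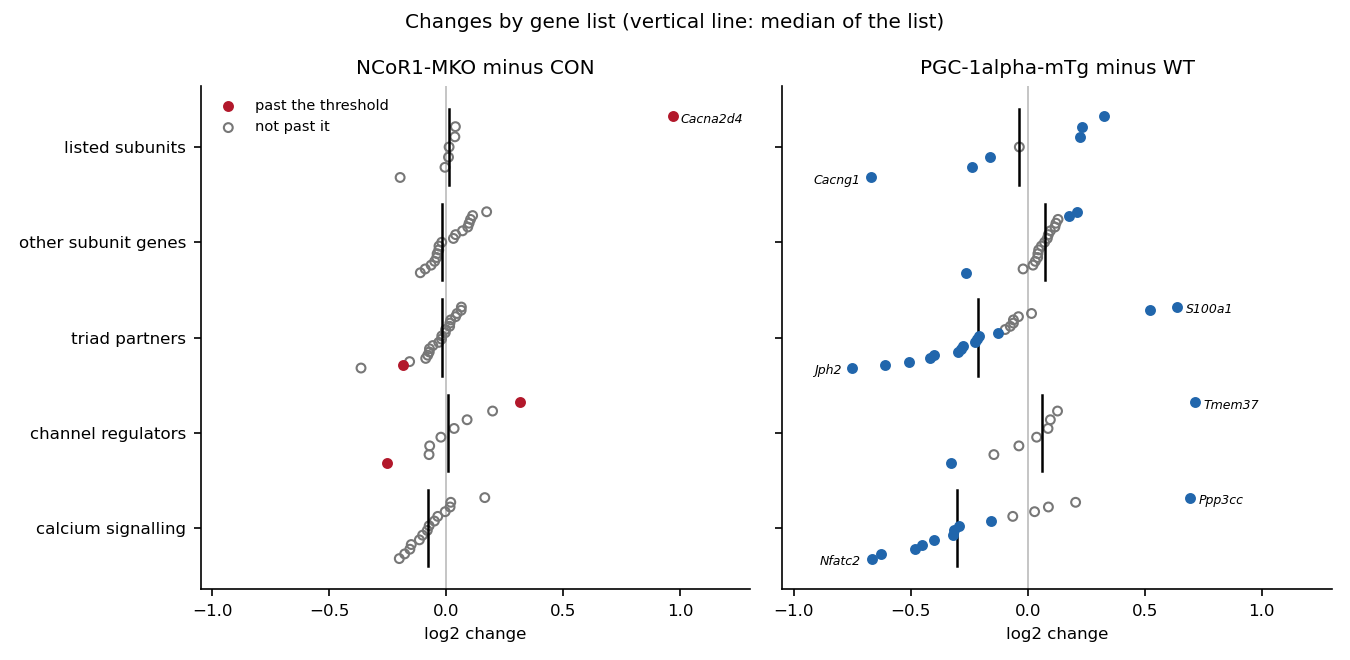
Log2 change (horizontal axis) of each measured gene in 5 lists, the 7 listed subunits, 17 other subunit genes, 20 triad partners, 8 channel regulators and 14 calcium signalling genes, in NCoR1-MKO minus CON (left) and PGC-1alpha-mTg minus WT (right). Filled points are past the threshold, and the black line is the list's median, which in PGC-1alpha-mTg is -0.21 for the triad partners and -0.30 for calcium signalling.

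Of 8 measured channel regulators and subunit-like relatives, the same 2 genes were called in both models and in the same direction. Over all genes 2.63% were called in NCoR1-MKO and 28.0% in PGC-1alpha-mTg. The PGC-1alpha-mTg count is near that share, so nothing is read from it. Tmem37, a relative of the gamma subunits, rose by 0.32 ± 0.08 in NCoR1-MKO (limma, adjusted p = 0.0339) and by 0.72 ± 0.08 in PGC-1alpha-mTg (limma, adjusted p = 2.97e-07). It had 7.31 to 7.55 in NCoR1-MKO against 6.94 to 7.23 in CON, and 7.32 to 7.82 in PGC-1alpha-mTg against 6.61 to 6.98 in WT, with no overlap in either. Cachd1, a relative of the alpha2delta subunits, fell by 0.25 ± 0.07 in NCoR1-MKO (limma, adjusted p = 0.0352) and by 0.33 ± 0.07 in PGC-1alpha-mTg (limma, adjusted p = 0.000415). Its groups did not overlap in NCoR1-MKO but did in PGC-1alpha-mTg, with 6.34 to 6.75 against 6.70 to 6.97 in WT. The difference between the models was -0.40 ± 0.11 for Tmem37 (limma, adjusted p = 0.0180) and 0.08 ± 0.09 for Cachd1 (limma, adjusted p = 0.666). In NCoR1-MKO each call held in 12 of the 20 fits with 1 array removed. The call of Tmem37 was lost without NCoR1-MKO array 1, 3, 4 or 5 or CON array 2, 3, 4 or 5, and that of Cachd1 without NCoR1-MKO array 1, 3, 4 or 5 or CON array 1, 2, 3 or 5.

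Transcripts of the kinases, phosphatases and factors that read calcium in the cytosol also mostly fell in PGC-1alpha-mTg. Of 14 genes 9 fell and 1 rose, where 16.1% of all genes fell and 11.9% rose, and their median was -0.30. Nfatc2, a calcineurin-dependent transcription factor, fell by 0.67 ± 0.07 (limma, adjusted p = 3.57e-08). The calmodulin-dependent kinase genes Camk2d and Camk2b fell by 0.63 ± 0.05 and 0.48 ± 0.05 (limma, adjusted p = 2.97e-09 and 1.9e-07). Ppp3cc, a catalytic subunit of calcineurin, rose by 0.69 ± 0.06 (limma, adjusted p = 2.03e-09), with 9.57 to 9.76 in PGC-1alpha-mTg, against 8.95 to 9.06 in WT.

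In NCoR1-MKO, where 2.63% of all genes were called, limma called 0 of these 14 genes. At an unadjusted p under 0.05, a looser cut than that of the 2.63%, 6 were lower and 0 higher. The share of all genes at that cut is not given here. The median was -0.08. The values with the smallest p were -0.18 ± 0.06 for Ppp3cc (limma, adjusted p = 0.111) and -0.20 ± 0.07 for Nfatc2 (limma, adjusted p = 0.124). The difference between the models for Ppp3cc was -0.87 ± 0.08 (limma, adjusted p = 7.16e-08).

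Markers of fibre type, innervation, vessels and fibroblasts also differed between groups, and their part in the subunit changes was not tested. Over all genes 1.31% rose and 1.32% fell in NCoR1-MKO, and 11.9% rose and 16.1% fell in PGC-1alpha-mTg. These shares are for called genes, and none is given for the unadjusted counts in this paragraph. Of 8 slow fibre markers 2 fell in NCoR1-MKO, with all 8 lower at an unadjusted p under 0.05 and a median change of -0.79. In PGC-1alpha-mTg 6 of the 8 fell, with a median of -0.70, and limma called 0 of the 8 for the difference between the models, with 0 at an unadjusted p under 0.05. The count of falls was 1 to 5 in NCoR1-MKO and 4 to 6 in PGC-1alpha-mTg over the fits without 1 array. Over the 8 alternatives with all arrays, 1 to 6 slow fibre markers were called in NCoR1-MKO and 5 to 7 in PGC-1alpha-mTg. The log2 of their summed brightness was 12.08 to 13.07 in NCoR1-MKO and 12.71 to 13.67 in CON, which overlap. It was 11.90 to 12.72 in PGC-1alpha-mTg and 12.90 to 13.43 in WT, which do not.

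The marker counts below stand beside shares over all genes of 1.31% higher and 1.32% lower in NCoR1-MKO. In PGC-1alpha-mTg the shares were 11.9% and 16.1%. Of 11 measured genes of the neuromuscular junction and of denervated muscle, 1 fell in NCoR1-MKO, while in PGC-1alpha-mTg 2 rose and 5 fell. The fall in NCoR1-MKO was Musk, by 0.91 ± 0.09 (limma, adjusted p = 1.65e-06). Musk also fell in PGC-1alpha-mTg, by 1.31 ± 0.09 (limma, adjusted p = 1.5e-10). The log2 of the genes' summed brightness was 10.92 to 11.15 in PGC-1alpha-mTg, against 11.38 to 11.55 in WT. Probe sets with high values weigh most in such a sum, and Musk had the highest WT mean of the list, 9.83. Of 6 endothelial markers 1 rose in NCoR1-MKO, where all 6 were positive with a median of 0.20. Their sum was 11.789 to 12.052 in NCoR1-MKO, against 11.511 to 11.786 in CON, so the groups stood just apart. In PGC-1alpha-mTg 4 of the 6 rose and 5 were positive, with a median of 0.34. The sum there was 11.61 to 11.69, against 11.20 to 11.46 in WT. For nerve and Schwann cells, 1 of 6 measured markers fell in PGC-1alpha-mTg, Pmp22 by 0.23 ± 0.08 (limma, adjusted p = 0.0425). The sums were 10.49 to 10.69 in PGC-1alpha-mTg and 10.67 to 10.93 in WT, and they mostly follow Pmp22, whose WT mean was 10.52. In NCoR1-MKO limma called 0 nerve markers, with 0 at an unadjusted p under 0.05. Of 6 fibroblast markers 2 fell in PGC-1alpha-mTg, Dcn by 0.17 ± 0.04 and Pdgfra by 0.26 ± 0.09 (limma, adjusted p = 0.00354 and 0.0379, the call of Pdgfra being lost without PGC-1alpha-mTg array 2 or 3 or WT array 1, 2, 3 or 4), and all 6 were negative with a median of -0.21. The log2 of their summed brightness was 12.72 to 12.83 in PGC-1alpha-mTg, against 12.88 to 13.10 in WT, without overlap. Among the 8 skeletal muscle markers Myh1 and Mb rose by 0.32 ± 0.05 and 0.29 ± 0.05 in PGC-1alpha-mTg (limma, adjusted p = 7.99e-05 and 7.4e-05), and Actn3, the alpha-actinin of fast fibres, fell by 0.28 ± 0.04 (limma, adjusted p = 3.16e-06). Of these 8 markers, 2 were higher and 4 lower at an unadjusted p under 0.05, a cut for which no share of all genes is given. The number called was 3 to 7 over the 8 alternatives with all arrays. RMA values have no zero, so no marker can be read as absent.

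The genes most like each called subunit were found by Pearson's r over the 20 arrays, after subtracting the mean of each cohort's own controls. The points share arrays and groups, so r mostly follows the group changes and is a description. Cacng1 was most like Vps72, Dnase1l1 and Prob1 (r = 0.97, 0.96 and 0.96), and Cacna1s most like Fmc1, Abcb9 and Mrpl30 (r = 0.96, 0.96 and 0.95). Cacna2d1 was most like Fth1, Anp32b and Capza2 (r = 0.94, 0.94 and 0.93). Cacna2d4 was most like Ptpmt1, Ptprs and Nmrk2 (r = 0.89, 0.87 and 0.87). Nmrk2, a nicotinamide riboside kinase of muscle, changed by 0.80 in NCoR1-MKO and 0.45 in PGC-1alpha-mTg. Cacnb1 was most like Dupd1, Scn3b and Macir (r = 0.89, 0.88 and 0.88), among which Scn3b encodes an accessory subunit of sodium channels. Cacna1h was most like Atxn2, Trak1 and Scly (r = 0.88, 0.87 and 0.86).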

How the data were processed

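RNA from gastrocnemius, 250 ng a sample, was amplified and labelled with biotin, per the labels' protocols. The deposited values are log2 expression values made by the authors with RMA, and Partek is also named, without versions, per the submitters' processing notes. No genome build is given in the sources used here. Array quantiles differed by at most 0.0630 within a cohort and by 0.169 to 0.228 between cohorts, and 0 pairs of arrays were identical. An array has no sequencing depth, and the number of arrays limits the precision.

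Of 35556 probe sets, 21789 had 1 gene symbol, 1621 several and 12146 none in the platform table, and 21698 of the first matched the RefSeq table of GRCm38.p6 by Entrez number. The probe set with the highest mean was used for each of 19938 genes, and no dim gene was removed. The 4 group means were fitted per gene by lmFit, contrasts.fit and eBayes of limma 3.58.1 (R 4.3.3) on the 20 arrays together, two-sided, with Benjamini-Hochberg adjustment across the 19938 genes. The fit was tested on simulated data. The members, gene lists and tests were chosen with earlier results of these data known. Of each list other than the members, the naming rule takes up to 4 called genes per direction, or, with none called, up to 2 by smallest p, besides nested and neighbouring genes. Of 141 listed symbols 130 were measured. Alternatives were quantile normalization over all arrays, centring, a filter on the dimmest 40% of genes, averaged probe sets, a fit to 1 cohort's 10 arrays, trend and robust moderation, array weights, a replicate block and leaving out each array.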

Additional observations from a re-analysis of the deposited data

Results flagged for a closer look

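WT array 1 stood apart from the other WT arrays for Cacna1h, at 6.44 with the nearest of the others at 6.30, so the gap took 0.756 of the group's range. WT array 5 stood apart for Cacna2d3, at 4.81 with the nearest at 4.90, a gap of 0.747 of the range. Chance marks about 1 in 20 groups of this size in this way, and the 7 subunits have 28 such groups.

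The NCoR1-MKO change minus the PGC-1alpha-mTg change was past limma's threshold for 4 subunits. The members were chosen with both changes known, so these are descriptions and no test. The difference was 0.64 for Cacna2d4, which was higher in both models and more so in NCoR1-MKO. It was 0.47 for Cacng1 and 0.23 for Cacna2d1, which fell in PGC-1alpha-mTg. It was -0.21 for Cacna1s, which rose in PGC-1alpha-mTg.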

How the results depend on the processing

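Each of 28 alternatives was run, 20 of them leaving out 1 array. Of 390 changes of the 7 subunits under these alternatives, 373 stayed on their side of the threshold, 16 lost their call and 1 gained one. The 16 were all Cacna2d4 in PGC-1alpha-mTg, lost in 13 fits without 1 array, with centring, with trend and robust moderation and with the replicate block, so it was kept in 5 of the 8 alternatives with all arrays. The gain was Cacng1 in NCoR1-MKO without CON array 1. The count of called subunits was 1 to 2 in NCoR1-MKO and 5 to 6 in PGC-1alpha-mTg over the fits without 1 array.

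Small counts moved. Triad partners called in NCoR1-MKO, 1 as reported, were 2 with quantile normalization, 2 without the dimmest 40% of genes, and 0 with centring, with only the 10 arrays of the comparison, with array weights and with the replicate block (0 to 2 without 1 array). Channel regulators called in NCoR1-MKO, 2 as reported, were 1 with quantile normalization (0 to 2 without 1 array). Calcium signalling genes called in NCoR1-MKO, 0 as reported, were 1 with only the 10 arrays and 1 with array weights (0 to 1 without 1 array). Other subunit genes called in PGC-1alpha-mTg, 3 as reported, were 1 with centring and 1 with only the 10 arrays (1 to 4 without 1 array). Lrtm2 in PGC-1alpha-mTg, near 0, ranged over both signs without 1 array, -0.0458 to 0.0390. The cause of these shifts was not tested.

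The labels do not say whether replicate numbers pair the samples, and the main fit used no pairing. The correlations that follow do not settle it. Deviations of same-numbered arrays correlated at -0.13 to 0.04 in NCoR1-MKO with CON and at -0.23 to 0.20 in PGC-1alpha-mTg with WT. With the replicate block 370 genes were called in NCoR1-MKO and 5318 in PGC-1alpha-mTg. With 5 arrays a group, changes near the threshold, such as those of Cacna1c and Cacna2d2, are not settled.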

Other observations

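Genes next to the subunit genes in the RefSeq table were read for shared movement. Dcp1b, an mRNA decapping gene next to Cacna2d4, changed by 0.17 ± 0.05 in NCoR1-MKO (limma, adjusted p = 0.0634), where Cacna2d4 changed by 0.97. Helz, an RNA helicase gene next to Cacng1, fell by 0.16 ± 0.05 in PGC-1alpha-mTg (limma, adjusted p = 0.0136, not called without PGC-1alpha-mTg array 2), where Cacng1 fell by 0.67. Cacng4, on the other side of Cacng1 and a gamma gene itself, changed by 0.04 ± 0.09 in PGC-1alpha-mTg (limma, adjusted p = 0.788). The genes flanking Cacna1s, Kif21b and Ascl5, changed by -0.02 ± 0.06 and 0.14 ± 0.09 in PGC-1alpha-mTg (limma, adjusted p = 0.865 and 0.267).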
